A study of Rattus norvegicus with 8 samples.

Results

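B2m and Nlrp3 are genes of innate and adaptive immunity whose RNA was read, beside circular RNAs, on arrays of rat penile tissue. B2m encodes beta-2-microglobulin, the light chain of MHC class I molecules, and Nlrp3 encodes the sensor of the NLRP3 inflammasome. They were found among the probes that are not controls by the custom probe CUST_1_PI421900130 for B2m (file entry NM_012512.1) and by the mRNA accession of Nlrp3, NM_001191642 (probe A_44_P281733). These are 2 genes, with 1 probe each, of 14227 probes that are not controls, of which 62 have an mRNA entry, or 2 of the 38 genes that could be named among those 62.

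The samples were 4 labelled Control and 4 labelled Model, each hybridised to 1 array. The title of the series names erectile dysfunction in diabetes. The labels of all 8 samples, Control and Model alike, describe the same apomorphine test (100 μg/kg, watched for 30 min). In that test, rats without an erection were assigned to the condition named in the title. That Model stands for these rats is inferred, since the titles do not say so. The strain, the age and the way diabetes was induced are not given in the sources used here, and no label ties a sample to an animal of its own, so p-values measure the spread among these 8 samples, some of which may be technical. All 8 RNA samples were treated with RNase R, which degrades linear RNA, before random-primed labelling, so both probes read what was left after digestion, and a difference here need not follow the level of the mRNA in the tissue.

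MHC class I molecules show peptides from inside the cell to cytotoxic T cells. Their heavy chain needs beta-2-microglobulin to fold and to reach the cell surface, and nearly all nucleated cells make it. Interferons and NF-kappaB signalling raise B2m transcription, and the gene is also a common reference in expression studies. NLRP3 senses cell damage and microbial products, assembles with the adaptor ASC (gene Pycard) and activates caspase-1, which matures interleukin-1β and interleukin-18 and opens the way to pyroptosis. Its own transcription is raised by NF-kappaB in a priming step, mainly in macrophages and other myeloid cells. In diabetes it is known for its response to metabolic stress signals.

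In GRCr8, the RefSeq rat assembly, B2m lies on chromosome 3 from 129549236 to 129555354 and Nlrp3 on chromosome 10 from 44826299 to 44853373. The sequence below is shown because it holds the letters of the motifs through which interferon and NF-kappaB act on genes of the class I pathway. It is the plus strand, which is the strand of the gene, at chr3:129549080-129549235, from the RefSeq promoter table of GRCr8, and ends at the last base before the annotated span of B2m. The capitals mark the interferon-stimulated response element, which is GAAA, any 2 bases and GAAA again, and the NF-kappaB consensus, which matches on the opposite strand.
B2m upstream: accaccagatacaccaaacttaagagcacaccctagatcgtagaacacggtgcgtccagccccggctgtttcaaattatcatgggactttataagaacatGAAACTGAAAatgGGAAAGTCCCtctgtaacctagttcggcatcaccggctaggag
Both motifs were searched on both strands of the 250 bases before the gene start that the table uses. They do not overlap each other in B2m. The start used for B2m is 94 bases past the first annotated base, so its window runs on beyond the printed stretch into the annotated span. The response element was found in 3.41% and the NF-kappaB consensus in 6.33% of 33469 rat promoter windows of that length. The window of Nlrp3 holds neither, which says only that these letters are not in it. That window lies inside the annotated span of Nlrp3, since the start it uses is 1799 bases past the first annotated base, and it is not printed. These matches describe the sequence and are not shown to be sites in use.

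The arrays measured both probes above background. Across arrays, the local background had a median of 12.5 to 15 intensity units, the 75th percentile of the processed signal was 47.9 to 127, and 91.7% to 97.7% of the probes were well above background. B2m and Nlrp3 were each well above background on 80 of 80 spots, 10 per array, with none saturated. Each scan time in the file headers covered 1 group: Control 1 alone, Control 2 to 4 together, or the 4 Model arrays together. Scanning run and group cannot be told apart. No further gene of the 2 pathway lists was found among the mRNA probes with a symbol, which were 39 of 62. The mRNA probes without a symbol were not identified. Of 20 inflammasome genes, among them Pycard, Casp1, Il1b and Gsdmd, 1 had an mRNA probe with a symbol, Nlrp3. Of 24 genes of MHC class I and its peptide supply, among them Tap1, Tapbp and Psmb8, 1 had such a probe, B2m. None of 25 markers of smooth muscle, endothelium, fibroblasts, leukocytes, epithelium and nerve had an mRNA probe with a symbol, so the labelled tissue and its share of immune cells were not checked. In bulk RNA of this kind, fewer cells of a type and less RNA per cell cannot be told apart.

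B2m was lower in Model on every array. Its value, the log2 processed signal minus the 75th percentile of the array, was 0.56 in Control 1, 0.07 in Control 2, 0.03 in Control 3 and 0.10 in Control 4. In Model it was -0.90, -0.26, -0.74 and -0.60 in replicates 1 to 4. The groups did not overlap, and the gap between Control 3, the lowest Control array, and Model 2, the highest Model array, was smaller than that between Control 1 and the other Control arrays. The means were 0.19 ± 0.25 in Control and -0.63 ± 0.27 in Model (log2, SD, n = 4), a 1.76-fold fall with a 95% interval of 1.28-fold to 2.41-fold. In limma, fitted over 13654 probes, the log2 change was -0.82 (SE 0.21) with a Benjamini-Hochberg adjusted p of 0.00832. With scanning run as a random block it was -0.86 (SE 0.28, limma adjusted p = 0.0391). The 4 Model arrays share 1 run, so the spread between runs rests there on the Control arrays alone, and that p may be too small. Against Control 1 alone the change was -1.19, and against Control 2 to 4 it was -0.69 (limma adjusted p = 0.0151). None of these fits separates run from group.

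A call of this kind was common on these arrays. Of all probes tested, 25.0% were called lower in Model (47.1% in either direction), and 22.4% were lower with groups that do not overlap. Among the 61 mRNA probes tested, 31.1% were called lower. B2m had the 12th lowest log2 change of the 61, where the median mRNA probe changed by -0.31. A call as low was thus no rarity here. The size depended on the processing: with normexp, which adds an offset to every spot, the log2 change was -0.43 (SE 0.12, limma adjusted p = 0.0205). With the median intensity minus the local background, without that offset, it was -0.78 (SE 0.20, limma adjusted p = 0.0116). The call rests on the zero point too: with arrays centred on their medians the change was -0.50 (SE 0.19) and missed the threshold, with a limma adjusted p of 0.0519. The median log2 change over the probes tested was -0.03 with the 75th percentile and 0.29 with median centring. Relative to that median B2m was at -0.78 in both, which is fixed in advance, since both scalings only shift whole arrays.

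**Figure D1:**
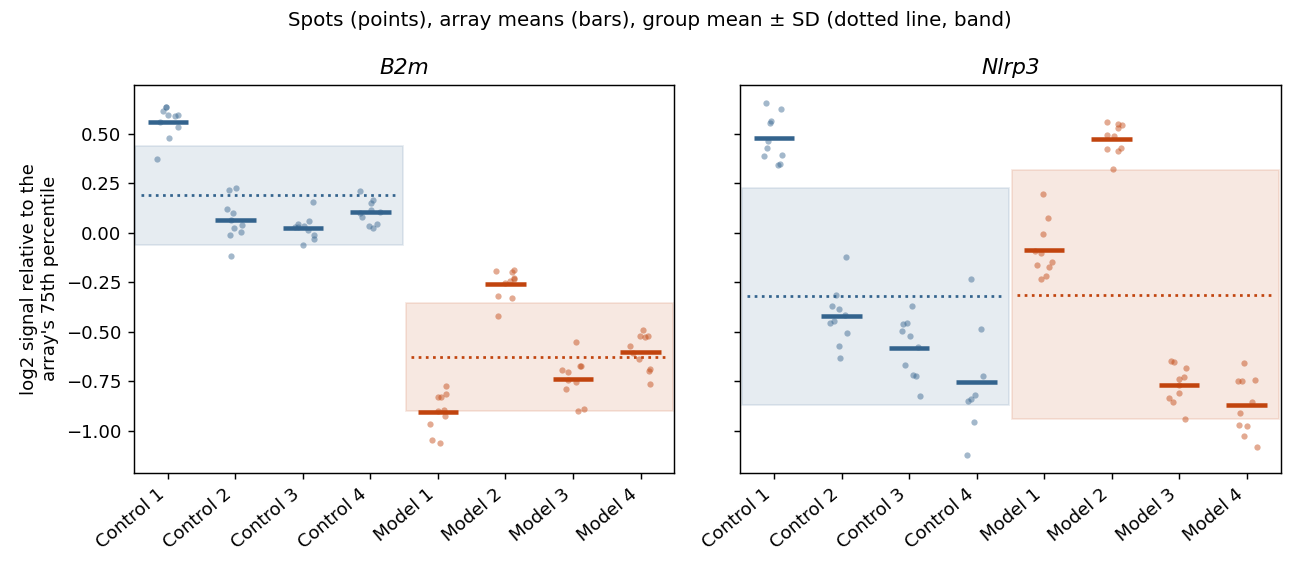
Log2 signal of B2m (left) and Nlrp3 (right) over the 75th percentile of the array, for the 4 Control (blue) and 4 Model (orange) arrays; points are spots, thick bars array means, dotted lines and bands the group mean ± SD. B2m lies at 0.03 to 0.56 in Control and at -0.90 to -0.26 in Model, while Nlrp3 spans -0.75 to 0.48 in Control and -0.87 to 0.48 in Model.

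Nlrp3 varied widely within each group and its groups overlapped over nearly their whole range. On the same scale it was 0.48 in Control 1, -0.42 in Control 2, -0.58 in Control 3 and -0.75 in Control 4. It was -0.09 in Model 1, 0.48 in Model 2, -0.77 in Model 3 and -0.87 in Model 4. Control 1 and Model 2 were the highest arrays, at almost the same level, and Model 3 and Model 4 the lowest. In both groups the other arrays lay below 0, so no level marks either group. The means were -0.32 ± 0.55 in Control and -0.31 ± 0.63 in Model (log2, SD, n = 4). The log2 change was 0.0078 (SE 0.35), with a 95% interval of -0.77 to 0.79 and a limma adjusted p of 0.989. That interval covers ratios of Model to Control from 0.586 to 1.72, and it overlaps the interval of the log2 change of B2m, which ran from -1.27 to -0.36. The sign of the Nlrp3 change turned under several settings. Against Control 1 alone it was -0.79, and without that array 0.27 (SE 0.32, limma adjusted p = 0.50). Control 1 stood 1.06 above the mean of Control 2 to 4 for Nlrp3 and 0.50 above it for B2m (log2), and it was alone in its scanning run. The part of that run in these values was not tested.

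Before scaling, the spots gave the same order of arrays only in part. The geometric mean processed signal of B2m was 103, 50.1, 96.4 and 137 intensity units in Control 1 to 4 and 43.6, 54.6, 33.2 and 43.4 in Model 1 to 4. The signal of Control 2 thus lay below that of Model 2, and the groups overlapped. For Nlrp3 the signal was 97.2, 35.7, 63.3 and 75.5 in Control 1 to 4 and 76.9, 91.0, 32.5 and 36.0 in Model 1 to 4. On the log2 scale the unscaled signal of B2m was 6.51 ± 0.61 in Control against 5.43 ± 0.29 in Model (SD, n = 4). The difference was -1.08 (p = 0.0571 in an exact two-sided permutation test, 0.114 adjusted over the 2 genes). That of Nlrp3 was 6.0 ± 0.61 and 5.74 ± 0.75 (SD, n = 4), with an exact permutation p of 0.686 before and after adjustment.

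The spots of a probe lay close together on most arrays. The SD of the log2 signal over the spots of 1 array was 0.059 to 0.11 for B2m and 0.076 to 0.28 for Nlrp3. The widest set was Nlrp3 in Control 4, where spots in use read 58.5 to 108 intensity units around a median of 71.6 and 2 further spots were left out as not uniform. The narrowest was B2m in Control 3, at 90.8 to 106 units around 96.6. The SE of an array mean over its spots averaged 0.027 for B2m and 0.046 for Nlrp3 (log2). The SD between arrays within a group was 0.26 and 0.59. The spot error leaves out the noise of labelling and hybridisation, which the spread between arrays includes together with differences between samples. The median spot was 3.46 to 9.36 times its local background for B2m and 3.36 to 8.90 times for Nlrp3, lowest for both in Model 3.

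**Figure D2:**
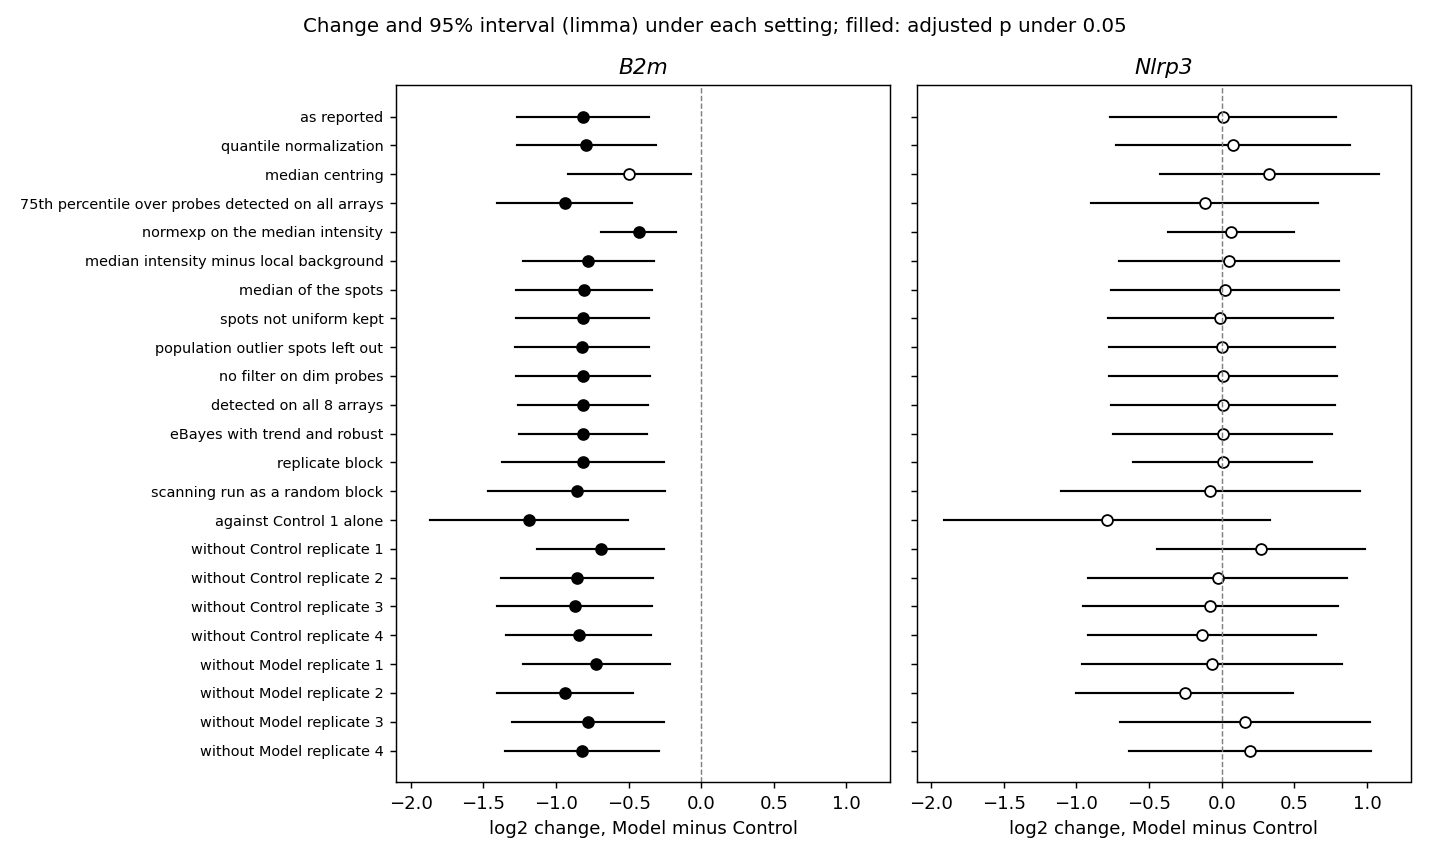
Log2 change of B2m (left) and Nlrp3 (right), Model minus Control, as points with 95% intervals from limma, for the reported setting (top) and 22 alternatives; filled points have an adjusted p under 0.05. B2m lies between -1.19 and -0.43 and is open at median centring alone, and Nlrp3 lies between -0.79 and 0.33 and is open throughout.

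The difference between the probes was taken within each array, where any scaling of a whole array cancels. The log2 value of B2m minus that of Nlrp3 was 0.08 in Control 1, 0.49 in Control 2, 0.61 in Control 3 and 0.86 in Control 4. In Model it was -0.82, -0.74, 0.03 and 0.27 in replicates 1 to 4. Model 1, Model 2 and Model 3 lay below all Control arrays, whereas Model 4 lay above Control 1, so the groups overlapped. The mean went from 0.51 ± 0.32 in Control to -0.31 ± 0.54 in Model (log2, SD, n = 4). The change of -0.82 had an exact two-sided permutation p of 0.0571 (adjusted p = 0.0857 over 3 within-array results), where the smallest p that 4 against 4 arrays allow is 0.0286. The difference thus did not pass here. With normexp it was -0.49 and passed (exact permutation p = 0.0286, adjusted p = 0.0429). Against Control 1 alone the difference was -0.40 (exact permutation p = 0.800, the smallest possible being 0.200), less than the pooled one by over 1.5 times, and without Control 1 it was -0.96 (exact permutation p = 0.0571, adjusted p = 0.129).

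Set against the other mRNA probes of the same array, B2m again lay lower in Model. B2m minus the median of the 60 further mRNA probes was 1.67, 1.57, 1.24 and 1.06 in Control 1 to 4 and 0.64, 1.21, 0.72 and 0.64 in Model 1 to 4 (log2). Model 2 lay above Control 4, and the other Model arrays lay below all Control arrays. The difference of -0.58 had an exact permutation p of 0.0571 (adjusted p = 0.0857), so it did not pass. For Nlrp3 the values were 1.59, 1.08, 0.63 and 0.20 in Control 1 to 4 and 1.45, 1.95, 0.69 and 0.37 in Model 1 to 4, a difference of 0.24 (exact permutation p = 0.600, adjusted p = 0.600). The median of those further probes was itself -1.20 ± 0.23 in Control and -1.43 ± 0.13 in Model (log2, SD, n = 4).

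**Figure D3:**
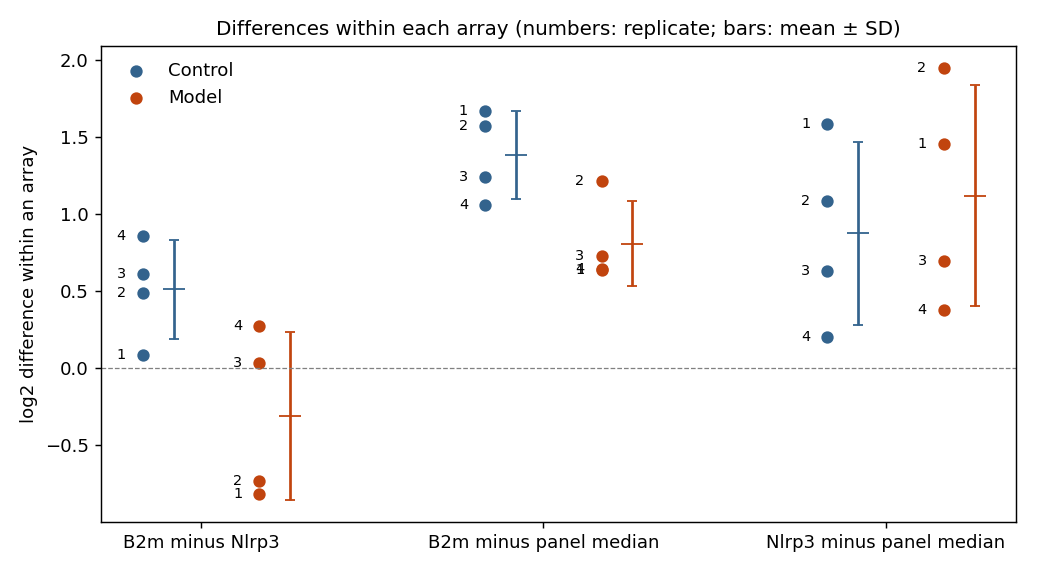
Differences of log2 signal within each array for B2m minus Nlrp3 and for each gene minus the median of the 60 further mRNA probes, with Control in blue and Model in orange; points are arrays with their replicate number and bars the group mean ± SD. B2m minus Nlrp3 spans 0.08 to 0.86 in Control and -0.82 to 0.27 in Model.

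B2m is 1 of 10 custom mRNA probes with a symbol, which include many genes used as references in expression studies. B2m had the lowest mean change of these 10, so its mean log2 ratio to each of the other 9 was lower in Model. It was not the lowest of all 12 custom mRNA probes: those without a symbol changed by -1.07 and 1.32 (log2). The groups did not overlap for 3 of the 9 ratios, those to Hprt1, Sdha and Hsp90ab1 (22.4% of single probes were lower without overlap, and the share for ratios was not taken). The mean log2 changes of these 3 partners were 0.48, 0.54 and 1.19, whereas those of the other partners were negative. The change of the ratio ran from -2.01 to Hsp90ab1, a chaperone gene, to -0.077 to Ldha, a subunit of lactate dehydrogenase, with a median of -0.45. A further Ldha probe, outside the custom set and not used for these ratios, changed by -1.37 (log2), which is lower than B2m. For Nlrp3 the ratio was lower in Model to 3 of the 9 and higher to 6, from -1.18 to 0.75 with a median of 0.37. These ratios carry the change of each partner as well, and no test was made of them.

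**Figure D4:**
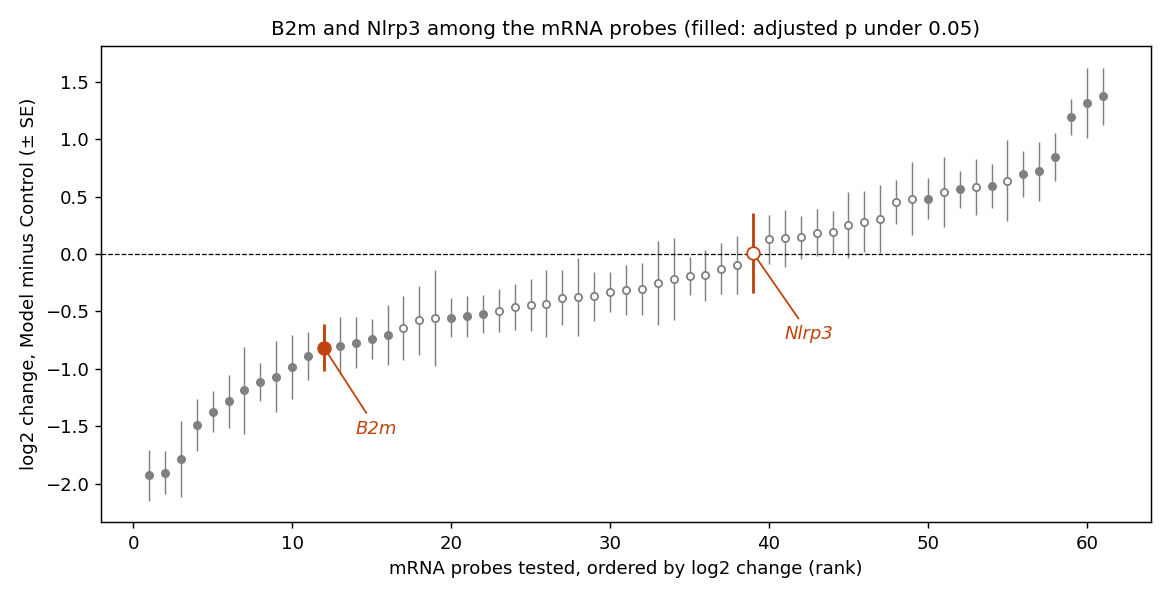
Log2 change, Model minus Control, of the 61 mRNA probes tested, ordered from lowest to highest, with SE bars; filled points have a limma adjusted p under 0.05, and B2m and Nlrp3 are in orange. B2m is 12th from the lowest at -0.82, and Nlrp3 is 39th at 0.0078, close to no change.

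The named mRNA probes most like B2m over the 8 arrays were those of Enpp1, an ectoenzyme that makes pyrophosphate (Pearson's r 0.963), Rpl13a, a ribosomal protein gene (0.891), and Ldha (custom probe, 0.856). These values are a description over 8 arrays that share the group difference and the scaling. Enpp1 was -2.51 in Control 1 and -2.88 to -2.75 in Control 2 to 4, against -3.33 to -3.13 in Model, and so shared with B2m both the high Control 1 and the higher Model 2. With each group's mean removed, r with B2m was 0.836 for Enpp1 but 0.454 for Rpl13a and 0.229 for Ldha. On that measure Fgf2 (0.863), which was above Enpp1, Magoh (0.746), Nlrp3 (0.702) and Med16 (0.698) were closer to B2m than Rpl13a and Ldha were. So were Trim2 (0.617), Gdnf (0.589), Lhcgr (0.542) and Napepld (0.483). This list was drawn up after the values were seen. Between the members r was 0.702 on that measure, against 0.334 over the 8 arrays with the group means kept. Control 1 and Model 2 were the highest of their groups for both genes. The other arrays did not all run alike. Among Control 2 to 4, Control 4 had the highest B2m (0.10) and the lowest Nlrp3 (-0.75). Model 1 had the lowest B2m (-0.90) but more Nlrp3 (-0.09) than Model 3 and Model 4. The part of Control 1 in that r was not tested.

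The probes most like Nlrp3 were those of Med16, a subunit of the Mediator complex (r 0.787), Fgf2, a growth factor (0.619), and Magoh, a component of the exon junction complex (0.607), again over 8 arrays. Med16 was -0.71 in Control 1 against -1.89 to -1.48 in Control 2 to 4, and in Model was highest in Model 2 at -0.96 and lowest in Model 4 at -1.39. With group means removed the order changed: r with Nlrp3 was 0.848 for Med16, 0.804 for Enpp1, 0.762 for the neurotrophic factor gene Gdnf, 0.702 for B2m, 0.644 for Magoh and 0.639 for Fgf2, where Enpp1 and Gdnf were picked after their values were seen. Control 1 was the highest of the Control arrays for Nlrp3, Med16, Fgf2 and Magoh alike. Gdnf, at -3.48 to -2.41, was dim like Enpp1 and Magoh.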

How the data were processed

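Per the labels, RNA digested with RNase R was labelled with Cy3 and hybridised to 1-colour arrays. Per the file headers, the deposited processed signal is an intensity per spot that Agilent Feature Extraction 11.0.1.1 corrected for background and for spatial trend. Spots with the flag for non-uniform pixels were left out, the rest averaged per probe on the log2 scale, and the 75th percentile of each array over all probes that are not controls was subtracted. Symbols came from the RefSeq table of GRCr8 by accession, which named 39 of 62 mRNA probes. Probes well above background on at least 4 arrays entered limma 3.58.1 under R 4.3.3 (Benjamini-Hochberg over all 13654 probes, threshold 0.05). The fit was also run on simulated data, where most of the smaller changes put in were missed. Those data had independent noise and few changed probes, whereas 47.1% of probes were called here, so that run is no check on these calls. Within-array differences were tested by exact permutation (two-sided, 70 splits).

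The genes and lists were chosen with earlier results of these data known. Both members were named, with the 3 named mRNA probes most correlated with each and any list gene that has a probe. The panel for the within-array results is the mRNA probes without the members; custom probes without an accession were left out of it. Alternatives are in the closing section. The deposited table of circRNA values holds neither gene and was not used.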

Additional observations from a re-analysis of the deposited data

Results flagged for a closer look

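Of 16 sets of 4 arrays, 2 held an array that stood far apart. By chance about 1 in 20 would. B2m was at 0.56 in Control 1 against 0.03 to 0.10 in the other Control arrays (log2 signal over the 75th percentile of the array). B2m minus the median of the further mRNA probes was at 1.21 in Model 2 against 0.64 to 0.72 in the other Model arrays (log2).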

How the results depend on the processing

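B2m stayed lower in Model in 22 of 22 alternatives, with log2 changes of -1.19 to -0.43, and kept its call in 21 (limma adjusted p from 0.00410 to 0.0519 over all 22); 1 of these sets Control 1 alone against Model, with no spread of its own. Another has the scanning run as a random block, where the spread between runs rests on the Control arrays alone. Median centring ended the call at -0.50. Leaving out 1 array gave -0.94 to -0.69; without Control 1, the comparison is with the other Control run. Nlrp3 was called in 0 of 22 by limma (adjusted p from 0.243 to 0.997), and in 0 at an unadjusted p under 0.05. Its sign turned with the percentile taken over probes that all arrays detected (-0.12), with spots not uniform kept (-0.0080), with the scanning run as a random block (-0.078) and against Control 1 alone (-0.79), and leaving out 1 array gave -0.25 to 0.27. The cause was not tested.

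B2m minus Nlrp3 was lower in Model in 16 of 16 alternatives, and B2m minus the panel median in 17 of 17. With normexp, which adds an offset, they were -0.49 and -0.39 and passed (exact permutation, adjusted p = 0.0429 each). Without 1 array they ran from -1.02 to -0.66 and from -0.72 to -0.48, and neither passed. Nlrp3 minus the panel median was -0.47 against Control 1 alone and -0.034 to 0.49 without 1 array. The count of probes called in the whole fit was 6436, against 3569 with normexp, 4055 with the run block and 4240 against Control 1 alone.

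With the replicate number as a block, B2m was at -0.82 (SE 0.25, limma adjusted p = 0.0253) and Nlrp3 at 0.0078 (SE 0.27, limma adjusted p = 0.985). The block changed no call. In the paired sign-flip test, whose smallest p is 0.125, B2m minus Nlrp3 was -0.82 (exact p = 0.125). The labels do not say whether same-numbered arrays are paired. Their deviations from the group means correlated from -0.18 to 0.18 over probes, and those of differently numbered arrays from -0.35 to 0.36. Such correlations cannot decide it, since a pairing need not show in most probes. Leaving out population outlier spots, adding the custom probes without an accession to the panel and keeping both members in it were chosen after seeing the data. Precision is limited by 4 arrays per group and by dim signal, the median spot being as low as 3.36 times its background (Nlrp3, Model 3).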
